A study of Caenorhabditis elegans with 4 samples.

Results

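The genes described are the cuticle collagens of Caenorhabditis elegans that carry a numbered col- name, measured in body-wall muscle cells sorted from embryos. Every row of the count table named col- followed by a number was taken, which gave 95 of 14463 genes. All 95 had at least 1 count, and together they held 3824 counts over the 4 libraries. Of the col- genes in the Ensembl 115 annotation of WBcel235, 94 matched a row, and the other 62 of 156 are not analysed here. The remaining row, col-182, is absent from that annotation.

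Cuticle collagens are short secreted proteins with interrupted Gly-X-Y repeats that fold as trimers, are cut and cross-linked, and build the exoskeleton of the worm. They are made by the epidermis in waves, once for the first cuticle in the late embryo and again before each molt. Muscle instead makes the type IV collagens of the basement membrane, and it lies directly beneath the epidermis.

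Both genotypes were profiled in 2 libraries. The mutant libraries came from strain MLC2277, which has the allele mir-1(luc108) on chromosome I, a deletion of the hairpin of the muscle microRNA miR-1, and carries the transgene lucEx1207(myo-3p::YFP). The wild-type libraries came from strain MLC2232, which has the same transgene and an intact mir-1. In both, the promoter of the myosin gene myo-3 drives a yellow fluorescent protein from an extrachromosomal array, so that only cells that keep the array can be sorted. The labels give 20 °C for growth, and the methods give somewhat higher temperatures for the plates and for the collected embryos. Embryos were taken once most, but not all, had reached the 1.5-fold stage and were dissociated with chitinase and pronase, and 5000 YFP-positive cells went into each library. The share of embryos at that stage in each library is not given in the sources used here, so a difference in stage between libraries cannot be told apart from other differences between them. The study calls the libraries of a genotype biological duplicates, without saying whether they came from separate cultures or sorts, and the p-values measure the spread between these libraries. The level of miR-1 was not analysed here, and the genotypes rest on the labels.

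QuantSeq sequences one tag near the poly(A) tail of each mRNA, and each tag carried a unique molecular identifier (UMI), so 1 count stands for 1 captured molecule and levels were not divided by gene length. The libraries held 343227 to 453341 UMI counts in mir-1(luc108) and 245336 to 424968 in wild type. Levels are given as CPM, which are UMI counts scaled to a common library size with edgeR's TMM factors over the 5111 genes that passed a filter on low counts. The 12 body-wall muscle markers summed to 16523 to 18280 CPM in mir-1(luc108) and 23195 to 24663 CPM in wild type, and myosin heavy chain unc-54 alone had at least 6742 CPM in each library. The 12 markers of epidermis and of the precuticle, the matrix that precedes the cuticle, summed to 1364 to 1475 CPM in mir-1(luc108) and 1365 to 1417 CPM in wild type, so transcripts of the tissue that makes cuticle collagen were present at similar summed levels in all 4. Single markers varied more, for instance let-653, singled out after its values were seen. It had 52.3 and 47.4 CPM in mir-1(luc108), against 21.3 and 20.5 CPM (5 and 8 counts) in wild type. Of the 10 markers tested, 4 were lower in mir-1(luc108), against 49.7% of all genes tested, and 6 were higher. In edgeR 0 of them passed a false discovery rate of 0.05. In sorted bulk cells, fewer cells of a type and less RNA per cell cannot be told apart.

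The col- genes were most abundant in 1 wild-type library, and this library set most of the difference between the genotypes. Their levels summed to 2075 and 1825 CPM in the mir-1(luc108) libraries 1 and 2, against 2246 CPM in wild type 1 and 4628 CPM in wild type 2. Wild type 2 thus stood 2.06-fold above wild type 1, whereas wild type 1 lay close to both mutants. The mean was 1950 ± 177 CPM in mir-1(luc108) and 3437 ± 1685 CPM in wild type (SD, n = 2 each), a ratio of 0.567, and the ratio of the mutant mean to wild type 1 alone was 0.868. As a share of all UMI counts, col- genes made up 0.201% (95% interval 0.189 to 0.215%) and 0.168% (0.155 to 0.183%) in mir-1(luc108), against 0.214% (0.196 to 0.234%) and 0.425% (0.406 to 0.445%) in wild type. These are exact Clopper-Pearson intervals and, like all intervals on counts here, they cover counting error only.

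**Figure D1:**
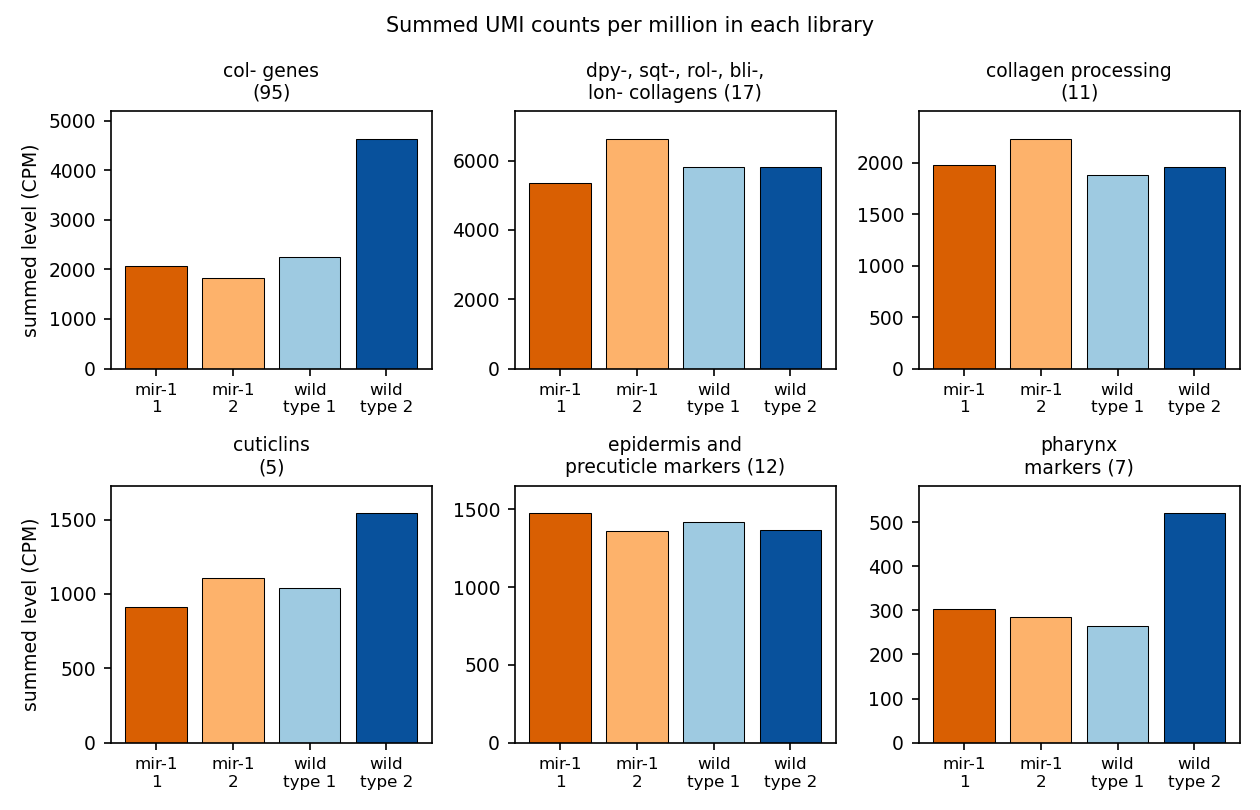
Summed level in CPM (linear axis from 0) of 6 gene groups in each library, with the number of genes in brackets and mir-1(luc108) to the left of wild type in each panel. The col- genes reached 4628 CPM in wild type 2 against 1825 to 2246 CPM in the other 3 libraries, the pharynx markers and cuticlins were also highest there, and the other groups were not.

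Of the 95 members, 20 passed the filter and were tested, and these held 85.8% of all col- counts. They differed widely in how far the 4 libraries spread. For 5 of them the highest library was less than 2-fold above the lowest, and for the other 15 it was 3.45 to 21.1 times the lowest. The median of this spread was 5.31-fold over the 20 members and 1.65-fold over all 5111 genes tested, of which 70.7% stayed under 2-fold.

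The 5 even genes were col-76, col-74, col-165, col-121 and col-48, and the first 4 of these were among the most abundant members. The level of col-76 (WBGene00000652; chromosome II, 8204339 to 8207495, plus strand; 6 exons) was 175 and 239.9 CPM in mir-1(luc108), against 273 and 197 CPM in wild type. The genotypes overlapped, since mir-1(luc108) 2 lay between both wild-type libraries. The level of col-74 was 175 and 179.9 CPM in mir-1(luc108), against 205 and 189.5 CPM in wild type. Here both mutants lay below both wild-type libraries, but by a small step, and the whole spread was 1.17-fold.

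The levels of col-165 were 157 and 208 CPM in mir-1(luc108), against 201 and 238 CPM in wild type. Those of col-121 were 145 and 202 CPM in mir-1(luc108), against 201 and 156 CPM in wild type, and those of col-48 were 27.3 and 25.3 CPM in mir-1(luc108), against 25.6 and 30.7 CPM in wild type. In all 3 genes the genotypes overlapped. Summed, the 5 even genes gave 679 and 856 CPM in mir-1(luc108), against 905 and 812 CPM in wild type, so wild type 2 was not the highest library for this group. With edgeR's quasi-likelihood test and Benjamini-Hochberg adjustment over all genes, the log2 fold changes ran only from -0.29 ± 0.24 (SE) for col-165 to -0.03 ± 0.25 for col-121, with adjusted p of 0.828 and 0.983.

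In the other 15 tested genes wild type 2 was the highest library throughout. Together they summed to 1029 and 723 CPM in mir-1(luc108), against 999 CPM in wild type 1 and 3243 CPM in wild type 2. Wild type 2 was therefore 3.25-fold above wild type 1 and 3.70-fold above the mutant mean for this group, while the mutant mean was 0.877 of wild type 1. These 15 were picked by their spread over the same 4 libraries, so the sums only describe the group. Over all 20 tested members, wild type 2 was at least 1.5-fold above every other library in 15, against 2.15% of all genes tested. In 14 it was at least 2-fold above. Wild type 2 exceeded wild type 1 at least 2-fold in the same number of members, 15 of 20, against 6.65% of all genes tested.

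**Figure D2:**
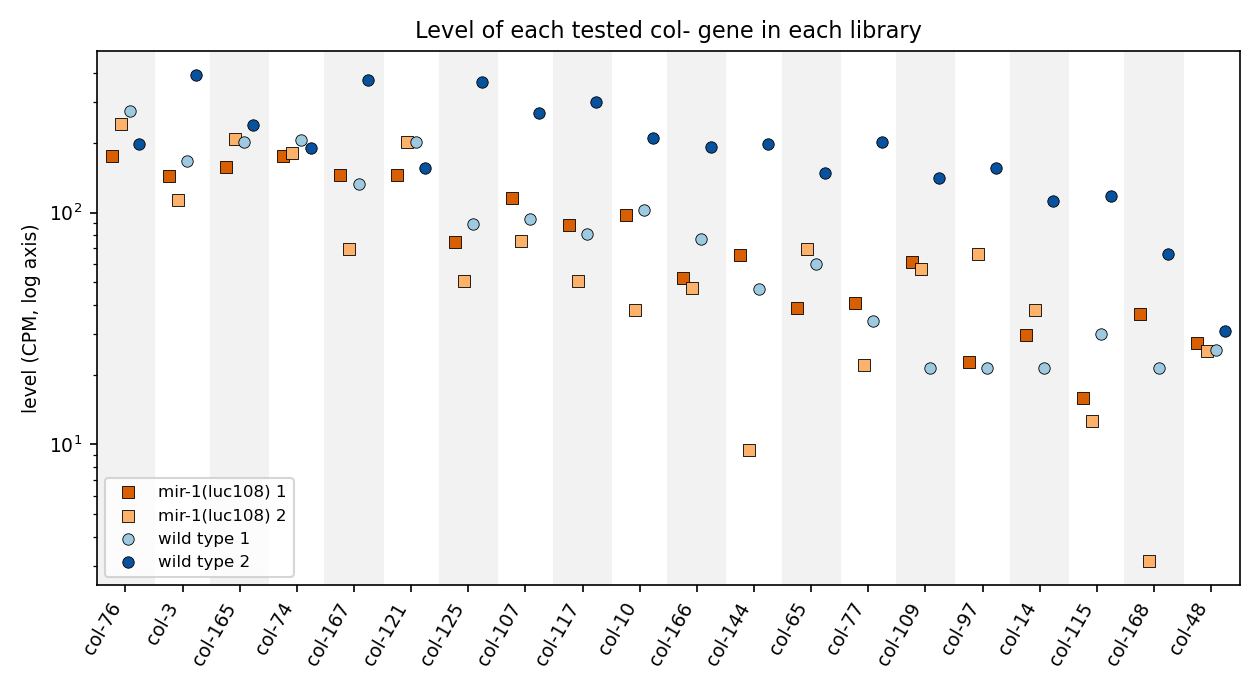
Level in CPM (log axis) of each of the 20 tested col- genes in each library, ordered by mean level; squares are mir-1(luc108), circles wild type, and each point is 1 library. For 5 genes (col-76, col-165, col-74, col-121, col-48) the 4 points lie within 1.56-fold of each other, and for the other 15 the wild type 2 point is the top one.

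The most abundant of these 15 was col-3 (WBGene00000594; chromosome IV, 8824783 to 8826013, plus strand; 2 exons), with 143 and 114 CPM in mir-1(luc108), against 166 and 392 CPM in wild type. Both mutants were below both wild-type libraries, but wild type 1 lay closer to mir-1(luc108) 1 than to its own replicate. The edgeR log2 fold change was -1.16 ± 0.31 (SE), with adjusted p = 0.186. The level of col-167 (WBGene00000740; chromosome X, 6323488 to 6324393, plus strand; 1 exon) was 145 and 69.5 CPM in mir-1(luc108), against 132 and 371 CPM in wild type, so wild type 1 fell between both mutants. The level of col-107 was 116 and 75.8 CPM in mir-1(luc108), against 93.9 and 269 CPM in wild type, again with wild type 1 inside the mutant range.

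The smallest p-values among the members belonged to col-125 and col-115. The level of col-125 (WBGene00000699; chromosome IV, plus strand; 2 exons) was 75.0 and 50.5 CPM in mir-1(luc108), against 89.7 and 366 CPM in wild type. Both mutants lay below wild type 1, by a much smaller step than the one from wild type 1 to wild type 2. The log2 fold change was -1.91 ± 0.43 (edgeR, SE), with adjusted p = 0.108. The level of col-115 (WBGene00000689; chromosome IV, plus strand; 5 exons) was 15.9 and 12.6 CPM in mir-1(luc108), against 29.9 and 118 CPM in wild type. Again the genotypes did not overlap, and the fold change, -2.46 ± 0.55 on the log2 scale with an edgeR adjusted p of 0.108, was the furthest from 0 among the 20. This gene passed the filter through the wild-type libraries alone, since neither mutant library reached the 26.0 CPM that the filter asks for.

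The next smallest p belonged to col-166, followed by col-3, above, and col-77. The level of col-166 (WBGene00000739; chromosome X, 6280016 to 6280921, plus strand; 1 exon) was 52.3 and 47.4 CPM in mir-1(luc108), against 76.8 and 192 CPM in wild type. Its genotypes did not overlap, and the log2 fold change was -1.49 ± 0.37 (edgeR, SE), with adjusted p = 0.164. The level of col-77 was 40.9 and 22.1 CPM in mir-1(luc108), against 34.2 and 202 CPM in wild type. Wild type 1 lay between the mutants, and wild type 2 was 4.95-fold above the next library, the widest such gap among the 20 tested genes. The level of col-10 was 97.7 and 37.9 CPM in mir-1(luc108), against 102 and 210.0 CPM in wild type, so that wild type 1 and mir-1(luc108) 1 were nearly level.

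Of the remaining genes in this group, 3 had wild type 1 as their lowest library. The level of col-109 was 61.3 and 56.8 CPM in mir-1(luc108), against 21.3 and 141 CPM in wild type. The level of col-97 was 22.7 and 66.3 CPM in mir-1(luc108), against 21.3 and 156 CPM in wild type. The level of col-14 was 29.5 and 37.9 CPM in mir-1(luc108), against 21.3 and 113 CPM in wild type. In these genes both mutants stood between the wild-type libraries, and the wild-type pair differed 5.28- to 7.32-fold. Wild type 1 rested on 5 counts in each gene. The exact 95% intervals of the wild-type ratio were 2.66 to 21.1 for col-109, 2.97 to 23.3 for col-97 and 2.10 to 17.1 for col-14. For col-97, mir-1(luc108) 1 and wild type 1 were nearly level.

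Over the 20 tested members, wild type 1 lay within the range of the mutant libraries in 10 genes, above it in 7 and below it in 3, whereas wild type 2 was the highest of the 4 libraries in 17. The exceptions were col-76, col-74 and col-121, all of them even genes.

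The design asks whether loss of miR-1 changes these transcripts in muscle. All 20 tested genes had a negative log2 fold change of mir-1(luc108) over wild type, against 49.7% of all genes tested, with a median of -1.16 against 0.00 over all genes. No member passed a false discovery rate of 0.05 in edgeR, in a table where 0.0587% of genes did so in either direction and 0.0391% passed it and were lower in mir-1(luc108). At an unadjusted p below 0.05, 13 members were lower and 0 higher, against 4.58% of all genes tested that were lower. Of the 20, only 12 reached the cut of the filter in all 4 libraries, and 6 did so in 0 or 1 mutant library. The set was thus chosen in part by the wild-type libraries, where most members were higher. These counts and the median are therefore a description of the set. DESeq2, fitted to all 95 members, also called 0, with 10 lower and 0 higher at an unadjusted p below 0.05. The share of all genes at that level in DESeq2 is not given here. In only 6 of the 20, namely col-3, col-74, col-125, col-10, col-166 and col-115, did both mutant libraries lie below both wild-type libraries, which was so for 18.9% of all genes tested.

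The size of this difference, and its direction in 4 of the 20 genes, rested on wild type 2. Without that library, 19 members passed the filter, 1 of them, col-131, not among the 20 above, 14 were lower (against 48.4% of all genes tested), the median log2 fold change was -0.20 (all genes, 0.02), and edgeR called 0. None of the 19 was then lower at an unadjusted p below 0.05, against 3.07% of all genes, and 1, col-109, was higher at that level, with a log2 fold change of 1.45 and an edgeR adjusted p of 0.573. DESeq2 was not run on this subset. Without wild type 1, so that wild type was represented by its second library alone, 14 of 29 members were lower in mir-1(luc108) with an edgeR adjusted p below 0.05, against 0.81% of all genes tested, and the median was -1.74. In both cases the single wild-type library was assumed to vary like the mutants. The filter then asked for only 1 library above its cut. Without wild type 1, members could therefore enter through wild type 2 alone, the library where most were highest. That fit tested 29 members among 6047 genes, against 20 among 5111 with all 4 libraries. Its calls thus come from a set chosen in part by the high library, and no conclusion is drawn from them.

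**Figure D3:**
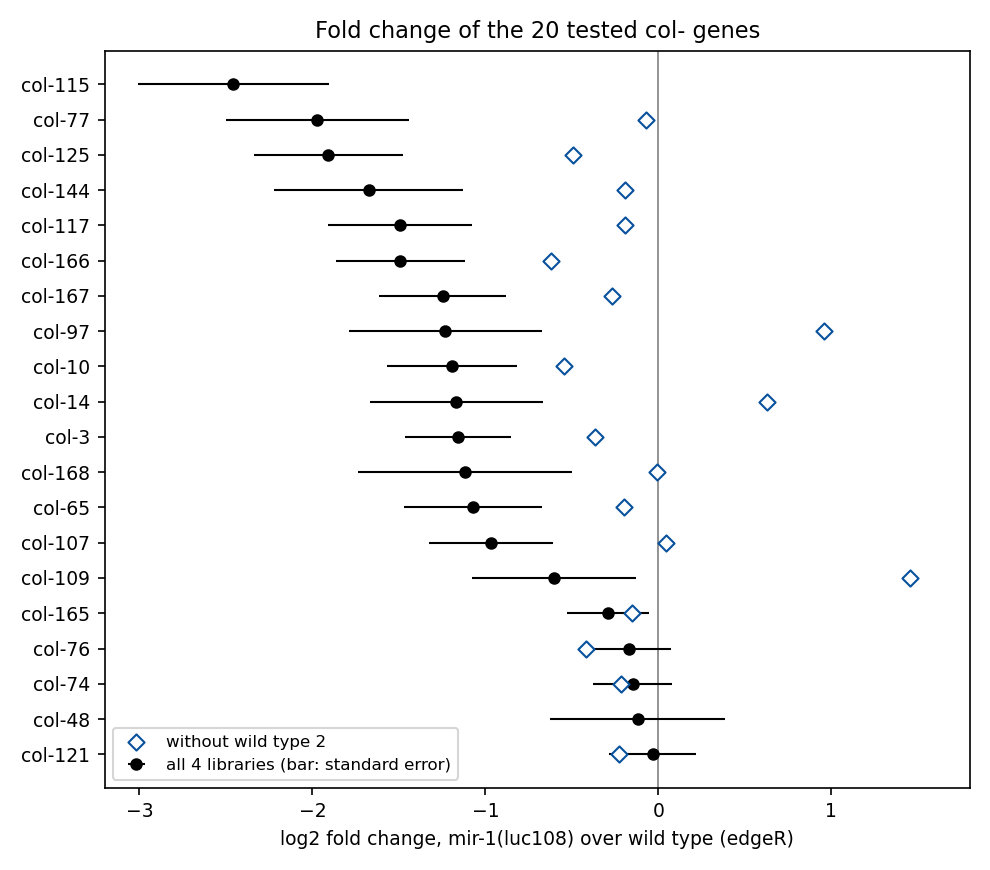
edgeR log2 fold change of mir-1(luc108) over wild type (horizontal axis) for the 20 tested col- genes, with all 4 libraries (filled circles, bars are the standard error) and without wild type 2 (open diamonds; col-115 and col-48 failed the filter without it). With 4 libraries the values run from -2.46 to -0.03; without wild type 2 they run from -0.62 to 1.45, and those of col-97, col-14, col-107 and col-109 are above it.

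The mutant libraries also differed between themselves, though less and in fewer genes. Among members with at least 10 counts in the pair, the ratio of mir-1(luc108) 1 to mir-1(luc108) 2 had a median of 1.30 over 28 genes, and its exact 95% interval lay above 1 in 6 and below 1 in 1, against 5.1% and 5.62% of all genes with as many counts. Over 28 genes in the wild-type pair, the ratio of wild type 2 to wild type 1 had a median of 2.68, with the interval above 1 in 18 genes and below 1 in none, against 6.02% and 3.73% of all genes with as many counts. The level of col-144 was 65.9 CPM in mir-1(luc108) 1 and 9.47 CPM in mir-1(luc108) 2, where it rests on 3 counts, against 47.0 and 197 CPM in wild type. The ratio within the mutant pair was 6.96 (2.16 to 35.7), so mir-1(luc108) 2 was the low library for this gene.

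A like gap appeared in col-168, with 36.4 and 3.16 CPM in mir-1(luc108), against 21.3 and 66.6 CPM in wild type. The ratio of mir-1(luc108) 1 to mir-1(luc108) 2 was 11.5 (1.79 to 483), the lower value being 1 count. For col-169, which was not tested, mir-1(luc108) 1 had 22.7 CPM and mir-1(luc108) 2 had 0 counts, against 12.8 and 46.1 CPM in wild type. The exact interval of the ratio of mir-1(luc108) 1 to mir-1(luc108) 2 had its lower end at 1.61, and 0 counts allow a level of up to 9.47 CPM (3 counts) in mir-1(luc108) 2. For col-39 the values were 22.7 and 3.16 CPM in mir-1(luc108), against 17.1 and 7.68 CPM in wild type, with wild type 1 the higher of its pair.

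The reverse order, with mir-1(luc108) 2 above mir-1(luc108) 1, held for col-97, where the ratio of mir-1(luc108) 1 to mir-1(luc108) 2 was 0.343 (0.144 to 0.760), and was the only one whose interval lay below 1. The other genes with the lowest ratios had intervals that included 1. Among them col-65 had 38.6 and 69.5 CPM in mir-1(luc108), against 59.8 and 149 CPM in wild type, and col-104 had 13.6 and 25.3 CPM in mir-1(luc108), against 21.3 and 74.3 CPM in wild type. In both, wild type 2 was again the highest library.

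**Figure D4:**
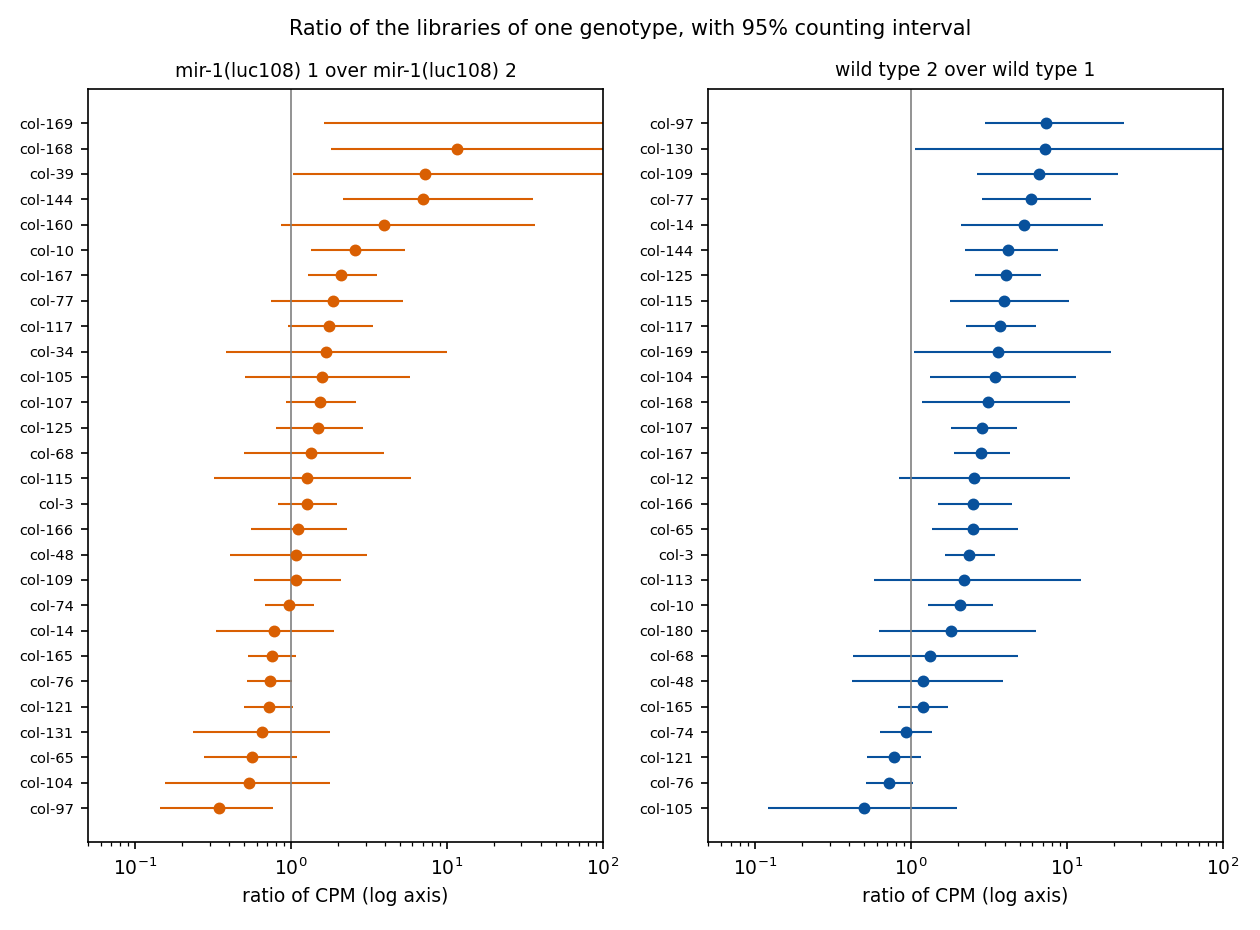
Ratio of CPM (log axis) between the libraries of 1 genotype for col- genes with at least 10 counts in the pair, mir-1(luc108) on the left and wild type on the right; points are ratios, lines exact 95% counting intervals, cut at the edges of the axis, and a line without a point has 0 counts in the lower library. The mutant ratios have a median of 1.30 and 6 of 28 intervals above 1, against a median of 2.68 and 18 of 28 in the wild-type pair.

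The other 75 members failed the filter. Of these, 37 had 3 or fewer counts over the 4 libraries, 16 had 1, and the most abundant, col-104, had 48. They included col-19, known as an adult-stage collagen, with 3 counts, and col-99, which encodes a transmembrane collagen and not a cuticle collagen, with 6. Their levels summed to 366 and 246 CPM in mir-1(luc108), against 342 and 574 CPM in wild type, so wild type 2 was the highest library here as well. In mir-1(luc108) 2, 44 of the 75 had 0 counts.

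Summed over libraries, the rate ratio of mir-1(luc108) to wild type had an exact interval below 1 in 9 of the 75 and above 1 in 1, against 1.85% below and 1.29% above among all genes that failed the filter. Of the 15 with at least 10 counts, 7 were below 1 and 1 above, against 3.74% and 2.89% of all such genes. These intervals pool the libraries of a genotype and leave out the spread between them, so they do not test the genotype. Wild type 2 was the highest library in each of the 9. The gene above 1 was col-131, with 20.4 and 31.6 CPM in mir-1(luc108), against 0 and 12.8 CPM in wild type, a ratio of 3.14 (1.13 to 10.7). Both mutants were above both wild-type libraries, from 24 counts in all. Among the 9, col-130 had 6.82 and 0 CPM in mir-1(luc108), against 4.27 and 30.7 CPM in wild type, so only wild type 2 stood out. In col-180, singled out after its values were seen, both wild-type libraries were high, with 2.27 and 0 CPM in mir-1(luc108), against 21.3 and 38.4 CPM in wild type, and a ratio of 0.0413 (0.000996 to 0.258). For col-105 the levels were 24.99 and 15.8 CPM in mir-1(luc108), against 25.6 and 12.8 CPM in wild type, and wild type 2 was the lowest library.

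Members with the wild type 2 pattern were found on every chromosome, most often on IV. Chromosome IV also held 8 of the 20 tested members and 26 of all 95. The 15 tested genes that varied over 2-fold lay on all 6 chromosomes, with coding lengths of 873 to 1179 bp and 1 to 5 exons, and the 5 even genes lay on 4 chromosomes, with coding lengths of 855 to 1497 bp and 2 to 6 exons. These classes were set by the values, so the features are given as a description. Several members are neighbours. On chromosome X, col-167, col-168, col-169 and col-170 follow each other on the plus strand within 6323488 to 6332611, and together they had 207 and 75.8 CPM in mir-1(luc108), against 166 and 492 CPM in wild type. On chromosome V, col-144, col-145 and col-10 lie on the minus strand within 9159586 to 9165307 and summed to 166 and 47.4 CPM in mir-1(luc108), against 154 and 425 CPM in wild type. In both clusters mir-1(luc108) 2 was the lowest library and wild type 2 the highest.

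A pair on chromosome IV, col-117 and col-3, is transcribed in opposite directions, away from a shared interval of 587 bp. The level of col-117 was 88.6 and 50.5 CPM in mir-1(luc108), against 81.1 and 299.7 CPM in wild type, and wild type 2 was the highest library for both genes of the pair. The annotation gives no 3′ untranslated region for 10 members, 3 of them tested (col-166, col-167 and col-168). QuantSeq tags fall near the 3′ end of the mRNA, so counts of such genes depend on where the gene model ends. Whether near-identical col- genes shared reads could not be checked without sequence, and col-159 and col-160 overlap by 1196 bp on the same strand, so their counts are uncertain.

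Other cuticle collagens, named for the body shape or blister phenotype of their mutants, were not higher in wild type 2 in their sum. Of a list of 20, 17 had a row and 7 were tested, with 0 called by edgeR, 0 at an unadjusted p below 0.05 and a median log2 fold change of 0.05. DESeq2 called 0 genes in the whole table. They summed to 5367 and 6623 CPM in mir-1(luc108), against 5827 and 5812 CPM in wild type, more than the 95 col- genes together in every library. The 3 most abundant were dpy-17, dpy-14 and sqt-3, cuticle collagens in which mutations shorten the body. The level of dpy-17 was 1550 and 1844 CPM in mir-1(luc108), against 1708 and 1772 CPM in wild type. That of dpy-14 was 1391 and 1951 CPM in mir-1(luc108), against 1635 and 1647 CPM in wild type, and that of sqt-3 was 1372 and 1585 CPM in mir-1(luc108), against 1481 and 1373 CPM in wild type. In dpy-17, dpy-14 and sqt-3 alike the wild-type libraries differed by less than the mutant libraries.

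Enzymes that modify, cut and cross-link cuticle collagens had similar summed levels in all 4 libraries, 1972 and 2229 CPM in mir-1(luc108), against 1883 and 1962 CPM in wild type. All 11 of the list had a row, 8 were tested, 4 were lower and 4 higher, edgeR called 0, 0 had an unadjusted p below 0.05, and the median log2 fold change was 0.00. The level of pdi-2, a subunit of prolyl 4-hydroxylase, was 1209 and 1471 CPM in mir-1(luc108), against 1153 and 1096 CPM in wild type. The protease gene bli-4 had 184 and 227 CPM in mir-1(luc108), against 171 and 251 CPM in wild type, and dpy-11, a thioredoxin-like enzyme, had 184 and 167 CPM in mir-1(luc108), against 226 and 233 CPM in wild type. Single genes varied more, as phy-2, another hydroxylase subunit gene, singled out after its values were seen, had 79.5 and 41.0 CPM in mir-1(luc108), against 25.6 and 51.2 CPM in wild type. In bli-4 the genotypes overlapped, in dpy-11 both mutants were lower and in pdi-2 both were higher, with adjusted p of 0.973, 0.730 and 0.808 in edgeR's test.

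Cuticlins, insoluble cuticle proteins other than collagens, were intermediate. Of 6 in the list 5 had a row and 3 were tested, with 0 called by edgeR. In that test 2 of the 3 were lower at an unadjusted p below 0.05, against 4.58% of all genes tested. The level of cut-2 was 648 and 777 CPM in mir-1(luc108), against 786 and 1173 CPM in wild type, so the ratio of wild type 2 to wild type 1 was 1.49 (1.26 to 1.78). The level of cut-3 was 199.95 and 256 CPM in mir-1(luc108), against 166 and 271 CPM in wild type, with overlapping genotypes. For cut-5 both wild-type libraries were above both mutants, with 34.1 and 25.3 CPM in mir-1(luc108), against 68.3 and 79.4 CPM in wild type, a log2 fold change of -1.30 ± 0.37 (edgeR, SE) and adjusted p = 0.218.

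The basement membrane collagens, which muscle itself makes, followed another order. The level of let-2, a type IV collagen chain, was 3438 and 2996 CPM in mir-1(luc108), against 4935 and 4413 CPM in wild type, and that of emb-9, the other chain, was 1375 and 1323 CPM in mir-1(luc108), against 1866 and 1601 CPM in wild type. Both wild-type libraries were above both mutants, and wild type 1 was the higher of its pair. With edgeR the log2 fold change of let-2 was -0.54 ± 0.21 (SE; adjusted p = 0.473), and 0 of the 3 genes were called. The level of cle-1, a type XVIII collagen homologue, was 40.9 and 41.0 CPM in mir-1(luc108), against 47.0 and 35.9 CPM in wild type, and did not separate the genotypes.

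Markers of other cell types moved with the col- genes in part. The 7 pharynx markers summed to 302 and 284 CPM in mir-1(luc108), against 265 and 520 CPM in wild type, so wild type 2 was 1.96-fold above wild type 1, a ratio near that of the col- genes. It was the highest library for 5 of the 7, including the defining pharyngeal myosins myo-1 (13.6 and 3.16 CPM in mir-1(luc108), against 4.27 and 41.0 CPM in wild type) and myo-2, which was at 0 in wild type 1. The pharyngeal regulator ceh-22 ran the other way, with 29.5 and 34.7 CPM in mir-1(luc108), against 76.8 and 17.9 CPM in wild type. The 6 intestine genes, 5 with a row, summed to 177 and 177 CPM in mir-1(luc108), against 89.7 and 172 CPM in wild type, and the 10 neuron genes to 464 and 366 CPM in mir-1(luc108), against 337 and 448 CPM in wild type. The 5 germline genes stayed at 7.68 to 31.6 CPM in total, and 4 of them were at 0 in some library. Of the 12 body-wall muscle markers all 12 had a negative log2 fold change, against 49.7% of all genes tested. In edgeR 8 of the 12 had an unadjusted p below 0.05, against 4.58% of all genes tested that were lower at that level, and 0 were called. The summed epidermis and precuticle markers of wild type 2 were 0.963 of those of wild type 1. The part of these markers in the col- result was not tested.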

How the data were processed

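QuantSeq 3′ mRNA libraries of sorted muscle cells were analysed from 2 mir-1(luc108) and 2 wild-type samples. The deposited values are raw UMI counts per gene: the authors took UMIs from the reads with UMI-tools, trimmed adaptors, mapped the reads to WBcel235 with STAR, discarded duplicates by UMI and counted with HTSeq, without pooling replicates. Versions and the annotation release are not given in the sources used here, nor is the strand setting of the counting.

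Genes with low counts were removed with filterByExpr (minimum count 10), leaving 5111 of 14463, and mir-1(luc108) was compared with wild type by edgeR 4.0.16's quasi-likelihood test with TMM factors and Benjamini-Hochberg adjustment over all genes tested (R 4.3.3, limma 3.58.1), at a false discovery rate of 0.05. DESeq2 1.42.0, which the authors used, was an alternative. CPM used the TMM-scaled counts of the tested genes. Ratios between libraries or genotypes carry exact binomial 95% intervals (scipy 1.17.1). Depth was 245336 to 453341 counts, so 3 counts equal 6.82 to 12.8 CPM. Library values of log2 CPM correlated at 0.902 to 0.943 across genes, and every pair differed by more than sampling noise (chi-square per degree of freedom of 2.06 to 3.30).

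The col- genes named were the 12 most abundant, the 4 with the smallest p in each direction, the 5 largest and 3 smallest ratios of wild type 2 to wild type 1 and the 4 largest and 4 smallest ratios of the mutant pair, each with at least 10 counts in the pair, and every gene called; col-19, col-48, col-99 and col-180 were added after their values were seen, and others by their position. From the other lists, the 3 most abundant were named, beside defining markers, phy-2 and let-653. The members and lists were chosen with earlier results of these data known. In simulated data on 5048 to 5162 genes with 200 changed for each fold size, this test recovered 46 at 2-fold, 150 at 4-fold and 186 at 8-fold, with 1, 1 and 12 false calls. The simulated libraries of a genotype shared the same expected level, with the spread fitted over all genes. No library was raised as wild type 2 was, so these rates do not carry over to the col- genes. Alternatives covered normalization, filters, the tool, a replicate block and leaving out each library. Gene positions are from Ensembl 115. Protein and promoter sequences were not used here.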

Additional observations from a re-analysis of the deposited data

How the results depend on the processing

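Over all genes, edgeR called 3, against 5 with upper-quartile factors, 5 with a minimum count of 5, 12 with a minimum of 20, 63 with no filter and 0 with DESeq2, with or without its prior. Leaving out 1 library gave 0 to 66. For the col- genes the count of 0 became 1 (col-125) with a minimum of 20 and 10 with no filter, and ran from 0 to 14 on leaving out 1 library. Deviations of same-numbered libraries from their genotype means correlated at 0.01, so no pairing by number showed over the genes tested as a whole. Whether same-numbered libraries shared a culture or sort is not stated, and this correlation cannot decide it. A replicate block gave 87 calls, 7 of them col- genes. All 95 members could be fitted with no filter and in DESeq2, and 64 were then lower in mir-1(luc108). The share of all genes that were lower in these fits is not given here, and 37 of the 95 had 3 or fewer counts. With no filter the median log2 fold change of the members was -0.95, against 0.02 over all genes. In DESeq2 the median over the 95 was -0.94 without its prior and -0.032 with it. Both medians cover many genes with few counts, so they do not compare with the median of -1.16 over the 20 tested members. That median ran from -1.74 to -0.20 on leaving out 1 library, which also changed the set of members tested. The log2 ratio of the summed levels, -0.82, ran from -1.25 to -0.20 likewise, and was weakest without wild type 2.

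Of 242 alternative values for 19 named genes, 204 kept direction and call, 30 passed the threshold and 8 turned positive, and 13 genes never changed direction. All 8 came from leaving out 1 library, where col-76 ran from -0.42 to 0.070, col-121 from -0.27 to 0.19, col-107 from -1.45 to 0.046, col-97 from -2.10 to 0.96, col-109 from -1.23 to 1.45 and col-14 from -1.74 to 0.63. The last 4 turned without wild type 2. Fold changes rest on 2 libraries a genotype, and members under about 10 counts in a pair have intervals too wide to read.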

Other observations

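In the whole table of genes tested, 31 had wild type 2 at least 2-fold above each other library, and 14 of these were col- genes. The corresponding sets of mir-1(luc108) 1, mir-1(luc108) 2 and wild type 1 held 13, 17 and 10 genes, with 0 col- genes in each. These genes were picked by their values, which are therefore a description. The largest gap outside the col- genes was in grl-4, a ground-like gene related to hedgehog proteins, with 15.9 and 0 CPM in mir-1(luc108), against 29.9 and 141 CPM in wild type. The most abundant was C02E7.7, with 1381 and 2014 CPM in mir-1(luc108), against 1358 and 4078 CPM in wild type. The set also held tnc-2 and tnt-4, troponin genes of the pharynx, and asp-1, an aspartyl protease gene of the intestine. The level of tnc-2 was 29.5 and 22.1 CPM in mir-1(luc108), against 25.6 and 92.2 CPM in wild type. That of asp-1 was 77.3 and 107 CPM in mir-1(luc108), against 25.6 and 236 CPM in wild type. What these genes share with the col- genes was not tested.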
